A study of Homo sapiens with 4 samples.

Results

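MX1 and MX2 encode the human MX proteins, and their RNA was followed in HT-29 cells, a human colorectal adenocarcinoma line, that carried a control vector (Mock) or stably overexpressed TRIM40 with an N-terminal Myc tag (Myc-TRIM40). All transcript rows with the symbol MX1 or MX2 were taken from the deposited tables and summed per gene, which gave 2 of 27685 genes and 5 of 63714 transcripts, 4 of them from MX1. The Mock cells are labelled wild type, neither condition received a further treatment, and TRIM40 was delivered by a pMSCV retroviral vector with puromycin selection. Whether the overexpressing cells were a pool or 1 clone is not given in the sources used here, and in a long-term overexpressing culture the TRIM40 gene and the history of the culture cannot be told apart. RNA sequencing was performed in 2 independent experiments with 1 library per condition in each, and the experiments are numbered as in the deposited tables.

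MX proteins are large GTPases of the dynamin superfamily that assemble into rings and oligomers and block the replication of viruses. MX1 (MxA) is cytoplasmic and restricts influenza and many other RNA viruses, whereas MX2 (MxB) sits at nuclear pores and restricts HIV-1 and herpesviruses. Both genes are silent or low in resting cells and are switched on by type I and type III interferons. These signal through JAK1 and TYK2 to the ISGF3 complex, which holds STAT2 and IRF9 and binds the interferon-stimulated response element in target promoters.

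In the hg19 coordinates of the deposited tables, MX2 (gene ID 4600) spans chr21:42733950-42780869 and MX1 (gene ID 4599) spans chr21:42792485-42831141, with a gap of 11.6 kb between them. No other gene in the tables overlaps either span. The 4 MX1 transcripts begin at 3 positions, namely 42792485 for variant 1, 42797958 for variants 2 and 3, and 42803977 for variant 4, and all end at the same base.

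RefSeq promoter windows (GRCh38.p14, 250 bases before to 50 bases after a start) were at hand for 3 MX1 starts, at chr21:41420308-41420607 (window 1), chr21:41425989-41426288 (window 2) and chr21:41431800-41432099 (window 3), all on the plus strand. MX2 was not in this table. In the GENCODE models of the same build, variant 1 begins nearest to the start of window 1, variants 2 and 3 nearest to that of window 2, and variant 4 exactly at that of window 3. The stretches below are shown because they hold the core letters of the interferon-stimulated response element, which are GAAA, any 2 bases and GAAA again, or the same repeats around 1 base, a spacing that was picked after the windows had been read. Both strands were searched, each stretch is written along the plus strand, and capitals mark the match.
MX1 window 1, repeats 2 bases apart on the plus strand, chr21:41420559-41420588: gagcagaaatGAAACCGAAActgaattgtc
MX1 window 2, repeats 1 base apart on the minus strand, chr21:41426116-41426144: aggagctaggTTTCGTTTCtgcgcccgga
MX1 window 2, repeats 1 base apart on the minus strand, chr21:41426161-41426189: ggtctgtgagTTTCATTTCttcgcggcgc
MX1 window 3, repeats 2 bases apart on the minus strand, chr21:41431844-41431873: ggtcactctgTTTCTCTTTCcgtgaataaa

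The match in window 1 begins at base 12 counted from the window's start site and overlaps a plus-strand match with 1 base between the repeats, which begins at base 7. Variant 1 of the GENCODE models begins 43 bases before that start site. A further match with 1 base between the repeats lies on the minus strand of window 1 and begins 19 bases before the start. The matches in window 2 begin 113 and 68 bases before its start. The match in window 3 begins 196 bases before its start and overlaps the only match in the 3 windows to TTC, any 3 bases and GAA, the core of the gamma-activated site. Over all 35116 windows, 3.57% held the repeats 2 bases apart, 3.12% held the repeats 1 base apart and 7.66% held the core of the gamma-activated site. Of the 16 other interferon-induced antiviral effector genes listed for this comparison, 13 had a window. In any of their windows, 12 of these held the repeats 2 bases apart, among them IFIT1, ISG15 and OAS3, against 4.38% of all gene symbols. The repeats 1 base apart were held by 5 of the 13, against 3.87% of all gene symbols. All 7 dynamin relatives had a window, and 0 held either kind of repeat. These are matches of letters in a fixed window, and binding was not measured.

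The libraries held 60954602 (Mock) and 61025795 (Myc-TRIM40) estimated reads in experiment 1, and 67424698 and 62582054 in experiment 2. TRIM40 itself was at 0 reads in both Mock libraries, against 272646 (experiment 1) and 110665 (experiment 2) with Myc-TRIM40, so the targeted gene went as labelled in all 4 libraries. The colon epithelial genes KRT8, KRT18, EPCAM and LGALS4 were between 321.8 and 4434.7 FPKM in all 4 libraries, but the intestinal transcription factors CDX1 and CDX2 were at 0.323 to 1.39 FPKM. Of the 7 leukocyte markers, CD3E and NKG7 were at 0 reads and PTPRC was at or below 0.0118 FPKM throughout, while LYZ, the lysozyme gene, was at 1356.5 to 1860.3 FPKM. CD14 was at 1.43 FPKM in Mock and 2.36 in Myc-TRIM40 of experiment 1, CD68 at 6.99 and 11.9, and ITGAM at 0.664 and 1.31, and in experiment 2 these genes were at 2.61 then 2.08, 5.86 then 7.17, and 0.320 then 0.385 FPKM. Over the 4 leukocyte markers tested, LYZ included, the median log2 ratio of FPKM + 1 was 0.47 in experiment 1 and -0.04 in experiment 2, against 0.03 and 0.08 over all genes tested, and 0 passed the edgeR adjusted p. The summed leukocyte list, nearly all of it LYZ, was at 1365.5 and 1420.1 FPKM, then 1869.1 and 1678.3 FPKM. The part of these genes in the MX1 and MX2 results was not tested. The summed fibroblast and endothelial list was at or below 1.11 FPKM in every library, with COL1A2, COL3A1, DCN and CDH5 at 0. Most of it was COL1A1, at 0.608 FPKM in Mock and 0.945 in Myc-TRIM40 of experiment 1, then 0.297 and 0.389. PECAM1, PDGFRB and VWF were at or below 0.109 FPKM. In bulk RNA, a change in the number of cells that carry a transcript and a change in the amount per cell cannot be told apart.

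MX1 RNA was higher with Myc-TRIM40 than with Mock in both experiments. MX1 was read 468 times in Mock and 16938 times in Myc-TRIM40 cells in experiment 1, and 423 and 1537 times in experiment 2. Per transcript length and library size this was 2.39 against 91.1 FPKM in experiment 1 and 2.02 against 7.83 FPKM in experiment 2. The Mock libraries lay close together, both Myc-TRIM40 libraries lay above them, and the Myc-TRIM40 library of experiment 1 stood far above that of experiment 2.

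The ratio of MX1 reads per effective library size was 35.2 in experiment 1 (95% exact binomial interval 32.1 to 38.7) and 3.60 in experiment 2 (3.23 to 4.02). These intervals cover counting error only, and each compares a pair of libraries, not the conditions. The ratio of experiment 1 was 9.78 times that of experiment 2, and the intervals do not overlap. Between the Mock libraries the same ratio was 1.15 (1.01 to 1.32).

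MX2 RNA followed the same order at a lower level. It had 65 reads in Mock and 3850 reads in Myc-TRIM40 cells in experiment 1, and 36 and 217 reads in experiment 2, or 0.350 and 20.7 FPKM, then 0.175 and 1.14 FPKM. The ratio of reads was 57.7 (45.1 to 74.9) in experiment 1 and 5.97 (4.18 to 8.75) in experiment 2. As with MX1, the groups did not overlap, and the ratio in experiment 1 was 9.66 times that in experiment 2. The Mock libraries differed by 1.88 (1.24 to 2.92).

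Across both experiments, edgeR's quasi-likelihood test with the experiment as a block gave a log2 fold change of 3.50 ± 0.71 for MX1 and of 4.36 ± 0.70 for MX2 (SE, n = 2 libraries per condition). The Benjamini-Hochberg adjusted p of edgeR over 14868 genes was 0.351 for MX1 and 0.143 for MX2, from unadjusted values of 0.000988 and 0.000208. Neither gene passed an adjusted p of 0.05, in a test that called 0.0404% of genes higher and 0.0202% lower, TRIM40 among the first. The fit had 1 residual degree of freedom beside a median of 7.44 prior degrees of freedom. The p-values thus rest largely on a spread borrowed from all genes, and only in part on that between these 2 experiments. An exact two-sided permutation test gave p = 0.333 for each gene, the smallest value that 2 against 2 libraries allow.

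As a plain measure of size, the log2 ratio of FPKM + 1 within an experiment was 4.76 and 1.55 for MX1 and 4.01 and 0.86 for MX2. The pseudocount lowers the ratio of MX2 more, since MX2 was under 1 FPKM in Mock cells. Both genes passed 1.5-fold higher in both experiments, as 0.457% of all genes tested did. Their groups also did not overlap in FPKM, with both Myc-TRIM40 libraries above both Mock libraries, but so did those of 15.2% of all genes. By the log2 ratio of FPKM + 1, MX1 was in place 5 and MX2 in place 7 of 14868 genes in experiment 1, and in places 72 and 373 in experiment 2.

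**Figure D1:**
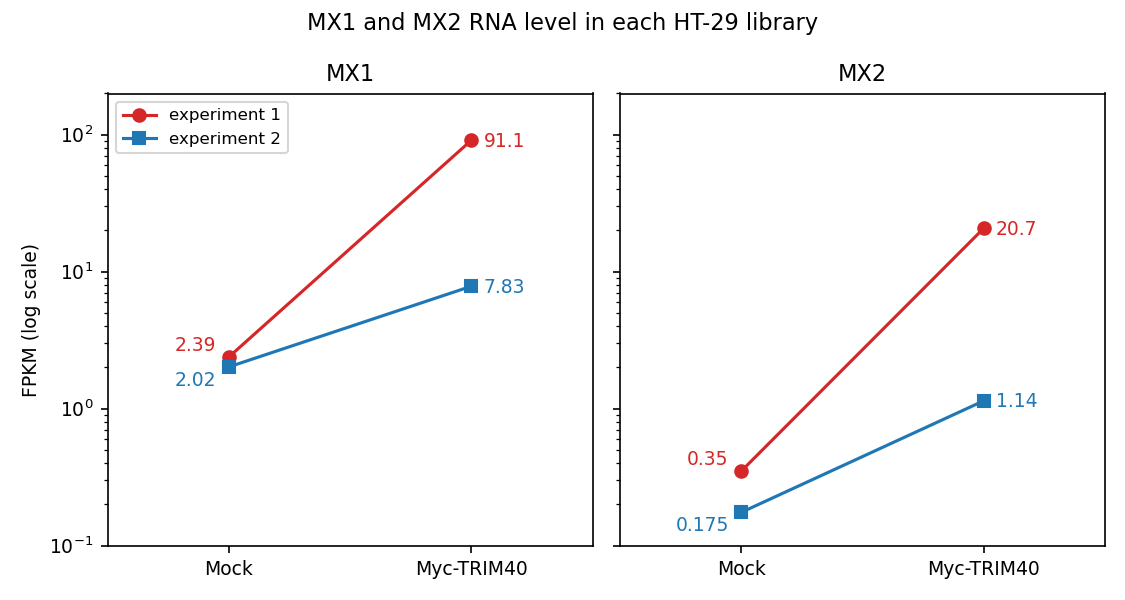
FPKM of MX1 and MX2 on a log axis in each of the 4 libraries, with a line joining Mock and Myc-TRIM40 of the same experiment. In the Myc-TRIM40 libraries MX1 sits at 91.1 and 7.83 FPKM and MX2 at 20.7 and 1.14 FPKM, each above both Mock libraries of its gene.

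MX1 was the more abundant of the pair in every library. Its FPKM was 6.84 times that of MX2 in Mock (95% interval from the reads 5.27 to 9.01) and 4.39 times (4.24 to 4.55) in Myc-TRIM40 cells of experiment 1, and 11.5 times (8.20 to 16.7) and 6.89 times (5.98 to 7.98) in experiment 2. The excess of MX1 over MX2 was thus smaller with Myc-TRIM40 in both experiments, while the intervals of Mock in experiment 1 and Myc-TRIM40 in experiment 2 overlap. Among the genes tested, 30.9% in experiment 1 and 31.5% in experiment 2 had a lower FPKM than MX1 in Mock, against 94.7% and 52.1% in Myc-TRIM40. For MX2 these shares were 13.0% and 9.45% in Mock and 74.5% and 22.6% in Myc-TRIM40.

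MX2 was represented by a single transcript (NM_002463, 2961 bases), so its reads were not divided. MX1 reads were divided by estimation among 4 transcripts that share most of their bases. In the GENCODE models of these transcripts, variant 1 had 717 bases and variant 3 had 136 bases found in no other variant, and variants 2 and 4 had 0. The models are not those used for the tables, since their lengths of 3470, 2850, 2810 and 1980 bases for variants 1 to 4 differ from the deposited 3427, 2986, 2811 and 1981 bases. Variants 1, 2 and 3 have the same coding bases, 1986 in the models, so they encode the same protein, while variant 4 has 1524 coding bases.

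Variant 2 (NM_002462), the most read variant in every library, had 223 reads in Mock and 15327 in Myc-TRIM40 cells in experiment 1, and 398 and 983 in experiment 2. It accounted for 91.7% of the MX1 read difference per effective library size in experiment 1 and for 52.4% in experiment 2. Variant 1 (NM_001144925) had 180 and 386 reads in experiment 1, and 25 and 488 in experiment 2. It made up 1.22% of the difference in experiment 1 and 41.7% in experiment 2.

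The ratios of the variants differed between the 2 experiments. The ratio of variant 2 was 66.9 (58.6 to 76.7) and then 2.45 (2.18 to 2.76), whereas that of variant 1 was 2.09 (1.75 to 2.51) and then 19.3 (12.9 to 30.2). These intervals cover counting error and not the division among variants, and variant 2, like variant 4, has no bases of its own in the models. Variant 3 (NM_001178046) had 65 reads in Mock and 1031 in Myc-TRIM40 of experiment 1, then 0 and 7. Variant 4 (NM_001282920), which starts farthest downstream, was at 0 reads in both Mock libraries and at 194 (experiment 1) and 59 (experiment 2) with Myc-TRIM40. Since variant 4 has no bases of its own in the models, its reads, the 0s included, come from the estimated division among variants, and no fold is given.

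The division of reads differed between the Mock libraries as much as between the conditions. Variant 2 held 47.6% (Wilson 95% interval 43.2 to 52.2) of MX1 reads in Mock of experiment 1 but 94.1% (91.4 to 96.0) in Mock of experiment 2, and 90.5% (90.0 to 90.9) and 64.0% (61.5 to 66.3) with Myc-TRIM40. Its share was higher with Myc-TRIM40 in experiment 1 and lower in experiment 2. The share of variant 1 went from 38.5% to 2.28% in experiment 1 and from 5.91% to 31.8% in experiment 2. The shares of variants 1 and 2 thus went opposite ways in the 2 experiments. Variant 3 held 13.9% and 6.09% in experiment 1, and in experiment 2 it held 0 of 423 reads in Mock, which allows a share of up to 0.709%, and 0.455% with Myc-TRIM40, so no direction could be read there. Variant 4 was assigned 0 of 468 and 0 of 423 reads in Mock and 1.15% and 3.84% of reads with Myc-TRIM40.

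**Figure D2:**
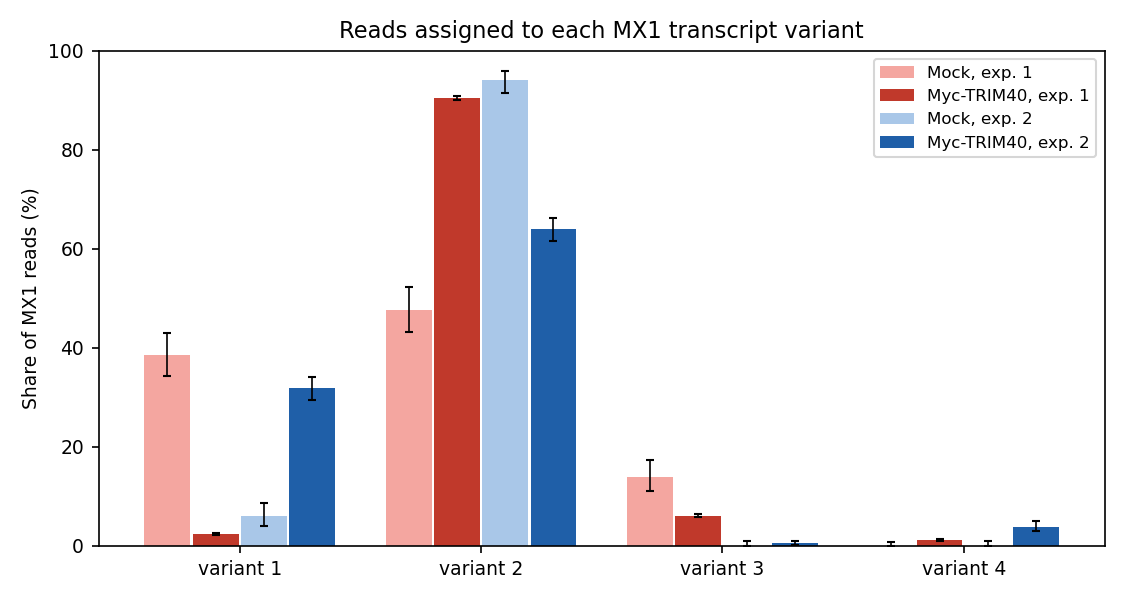
Share of MX1 reads in percent assigned to each of the 4 transcript variants, with a bar for each library and error bars giving the Wilson 95% interval for counting error. The share of variant 2 is 47.6% and 94.1% in the Mock libraries, so the Mock libraries are as far apart as the conditions.

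The genes beside the pair were next examined. Within 250 kb of the MX2 to MX1 span lay LINC00323, MIR3197, BACE2, PLAC4 and FAM3B before MX2, and TMPRSS2 after MX1. TMPRSS2, a serine protease of epithelial cells whose nearest edge lies 5.3 kb beyond MX1, had 2221 reads in Mock and 2977 in Myc-TRIM40 of experiment 1, then 2136 and 2434, with an edgeR log2 fold change of 0.28 ± 0.21 (SE) and an adjusted p of 0.888. BACE2, an aspartyl protease gene, was at 6.56 and 7.38 FPKM, then 5.92 and 6.66 FPKM (edgeR log2 fold change 0.09 ± 0.21 SE, adjusted p = 0.955). FAM3B, whose nearest edge lies 4.3 kb before MX2, had 0 reads in the Mock libraries and 6 and 3 with Myc-TRIM40, and LINC00323, MIR3197 and PLAC4 had at most 3 reads in any library. Both expressed neighbours lay within 0.39 on the log2 scale of FPKM + 1 in either experiment, against 0.86 to 4.76 for the MX genes.

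Of the 21 listed interferon genes, IFNG included, 4 passed 1.5-fold higher on FPKM + 1 in experiment 1 and 0 did in experiment 2. Over all genes tested the shares were 2.78% and 8.54%. The counts cannot be weighed against these shares, since 14 of the 21 had 0 reads in every library and could not pass. In experiment 1, IFNB1 (interferon beta) had 0 reads in Mock and 32 in Myc-TRIM40 cells, at least 10.4-fold higher against the floor. The type III genes IFNL1, IFNL2 and IFNL3 had 8, 0 and 0 reads in Mock and 176, 65 and 53 reads with Myc-TRIM40. In experiment 2, IFNB1 and IFNL2 had 0 reads in both libraries, IFNL1 had 5 reads in each, and IFNL3 had 5 in Mock and 0 with Myc-TRIM40. IFNL2 and IFNL3 are near-identical copies, so the division of reads between them is uncertain. At this depth 16 of the 21 ligand genes, all of the listed interferon alpha genes among them, had at most 3 reads in every library, and only IFNE had enough reads to be tested, at 72 to 94 reads in each library, and IFNE overlaps MIR31HG. Experiment 1, with reads of IFNB1 and more reads of the IFNL genes in Myc-TRIM40 cells, also had more TRIM40 reads and larger MX1 and MX2 ratios. The part of the interferon genes or of the TRIM40 level in the size of these ratios was not tested.

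None of the 9 interferon receptor and kinase genes passed the edgeR test in either direction. For these genes the median log2 ratio of FPKM + 1 was 0.17 in experiment 1 and 0.23 in experiment 2, against 0.03 and 0.08 over all genes tested. IFNAR1 and IFNAR2, the subunits of the type I receptor, were at 3.96 and 3.61 FPKM in Mock and at 4.47 and 3.98 FPKM in Myc-TRIM40 of experiment 1. IFNLR1, the specific subunit of the type III receptor, was at 1.07 and 1.51 FPKM in experiment 1 and at 0.643 and 1.00 FPKM in experiment 2 (edgeR log2 fold change 0.49, adjusted p = 0.888). By unadjusted edgeR p under 0.05, which 3.41% of all genes reached higher and 1.13% lower, 0 of 9 were called, and DESeq2 called 0, against 0.303% of all genes higher and 0.0605% lower.

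Of the 5 listed factors that act in this pathway, ISGF3 subunits and interferon regulatory factors, 0 passed the edgeR adjusted p. At an unadjusted edgeR p under 0.05, 3 were higher (IRF9, STAT2 and IRF7), against 3.41% of all genes. IRF9, the DNA-binding subunit of ISGF3, was at 9.17 FPKM in Mock and 41.4 in Myc-TRIM40 of experiment 1, then 8.18 and 15.9 (edgeR log2 fold change 1.49, adjusted p = 0.395). STAT2 was at 5.88 and 12.7, then 3.58 and 5.33 FPKM (0.76, adjusted p = 0.888). IRF7 was at 16.5 and 80.8, then 16.5 and 21.8 FPKM (1.26, adjusted p = 0.888). For IRF1 the log2 ratios of FPKM + 1 were 0.85 and 0.15. IRF3, which is held ready in resting cells, was at 76.2 to 100.4 FPKM in all libraries, with ratios of -0.07 and -0.29 on the log2 scale. Over the 5 factors the median log2 ratio was 0.99 in experiment 1 and 0.38 in experiment 2. DESeq2, which called neither MX1 (adjusted p = 0.744) nor MX2 (adjusted p = 0.199), called IRF9 higher, 1 of the 5, against 0.303% of all genes.

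All 16 of the other interferon-induced antiviral effectors passed 1.5-fold higher in experiment 1, against 2.78% of all genes, and 8 of 16 in experiment 2, against 8.54%. Their median log2 ratio was 2.95 and 0.64, so MX1 lay above the list's median in both experiments, and MX2 did too. OAS2, an oligoadenylate synthetase that activates RNase L, was at 2.01 and 102.5 FPKM, then 2.01 and 9.44 FPKM, beside 2.39, 91.1, 2.02 and 7.83 FPKM for MX1. ISG15, a ubiquitin-like modifier, and BST2 (tetherin) had log2 ratios of 2.92 and 2.16 in experiment 1 and of -0.15 and -0.10 in experiment 2. No effector passed the edgeR adjusted p (0 of 16), which 0.0404% of all genes passed higher. At an unadjusted edgeR p under 0.05, 14 of 16 were higher, against 3.41% of all genes. DESeq2 called 5 of 16 higher, namely EIF2AK2, IFIT3, OAS1, OAS3 and RSAD2, against 0.303% of all genes. Several of these genes were also selected by the study on these same libraries, so their direction is not independent evidence.

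Of the 6 negative regulators, USP18, which removes ISG15 and blocks the type I receptor, was at 3.24 and 20.1 FPKM, then 2.66 and 4.88 FPKM (edgeR log2 fold change 1.68, adjusted p = 0.543). SOCS1, an inhibitor of JAK kinases, had 0 and 25 reads, then 6 and 10, too few to be tested. The list's 5 tested genes had a median log2 ratio of 0.13 and 0.19, with 0 called by edgeR. USP18 alone was higher at an unadjusted edgeR p under 0.05, as 3.41% of all genes were. It alone was called higher by DESeq2, as 0.303% of all genes were.

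The relatives of the MX proteins in the dynamin superfamily had ratios near those of all genes in experiment 1. For DNM1, DNM2 and DNM3, the dynamins of membrane scission, and for DNM1L, OPA1, MFN1 and MFN2, which divide and fuse mitochondria, the log2 ratio of FPKM + 1 lay between -0.20 and 0.09 in experiment 1. In experiment 2 it lay between 0.14 and 0.60, with a median of 0.39, where all genes had a median of 0.08. DNM2 had the largest of these, 38.0 FPKM in Mock and 58.0 in Myc-TRIM40, but was at 81.0 and 80.8 FPKM in experiment 1. It was the only 1 of the 7 to pass 1.5-fold higher in experiment 2. Over all genes tested, 8.54% passed in experiment 2 and 2.78% in experiment 1, so higher ratios were also more frequent in experiment 2 outside this list. By edgeR 0 of 7 passed, and 0 of 7 had an unadjusted p under 0.05, which 3.41% of all genes reached higher and 1.13% lower. DESeq2 also called 0, against 0.303% of all genes higher and 0.0605% lower.

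The genes of host proteins that MX1 or MX2 are known to bind or to depend on were likewise not called by edgeR or DESeq2. DDX39B (UAP56) and DDX39A, RNA helicases bound by MX1, were at 159.7 and 154.1 FPKM and at 67.3 and 65.4 FPKM in experiment 1. In experiment 2, DDX39B was at 162.4 and 159.5 FPKM and DDX39A at 83.2 and 56.6 FPKM, a log2 ratio of -0.55 (edgeR adjusted p over both experiments 0.888). The nuclear pore and import genes RANBP2, NUP153, TNPO1, TNPO3 and KPNB1, several of which bear on MX2 activity, had log2 ratios of -0.18 to 0.00 in experiment 1 and of 0.41 to 0.79 in experiment 2. PPIA (cyclophilin A) and CPSF6, capsid-binding factors, had -0.11 and -0.09, then -0.44 and 0.12. Over the 9 genes the median was -0.09 and 0.41, and 0 of 9 passed edgeR. An unadjusted edgeR p under 0.05 was reached by 0 of 9, against 3.41% of all genes higher and 1.13% lower. DESeq2 called 0 of 9, against 0.303% higher and 0.0605% lower. RANBP2, NUP153 and TNPO3, 3 of 9, passed 1.5-fold higher in experiment 2, against 8.54% of all genes. In experiment 1 this was 0 of 9, against 2.78%. On TPM the median over all genes in experiment 2 was 0.27 instead of 0.08, and 7 of 7 dynamin relatives and 6 of 9 partner genes lay above the median of all genes on either scale (6 of 7 and 5 of 9 on TMM-normalized CPM).

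**Figure D3:**
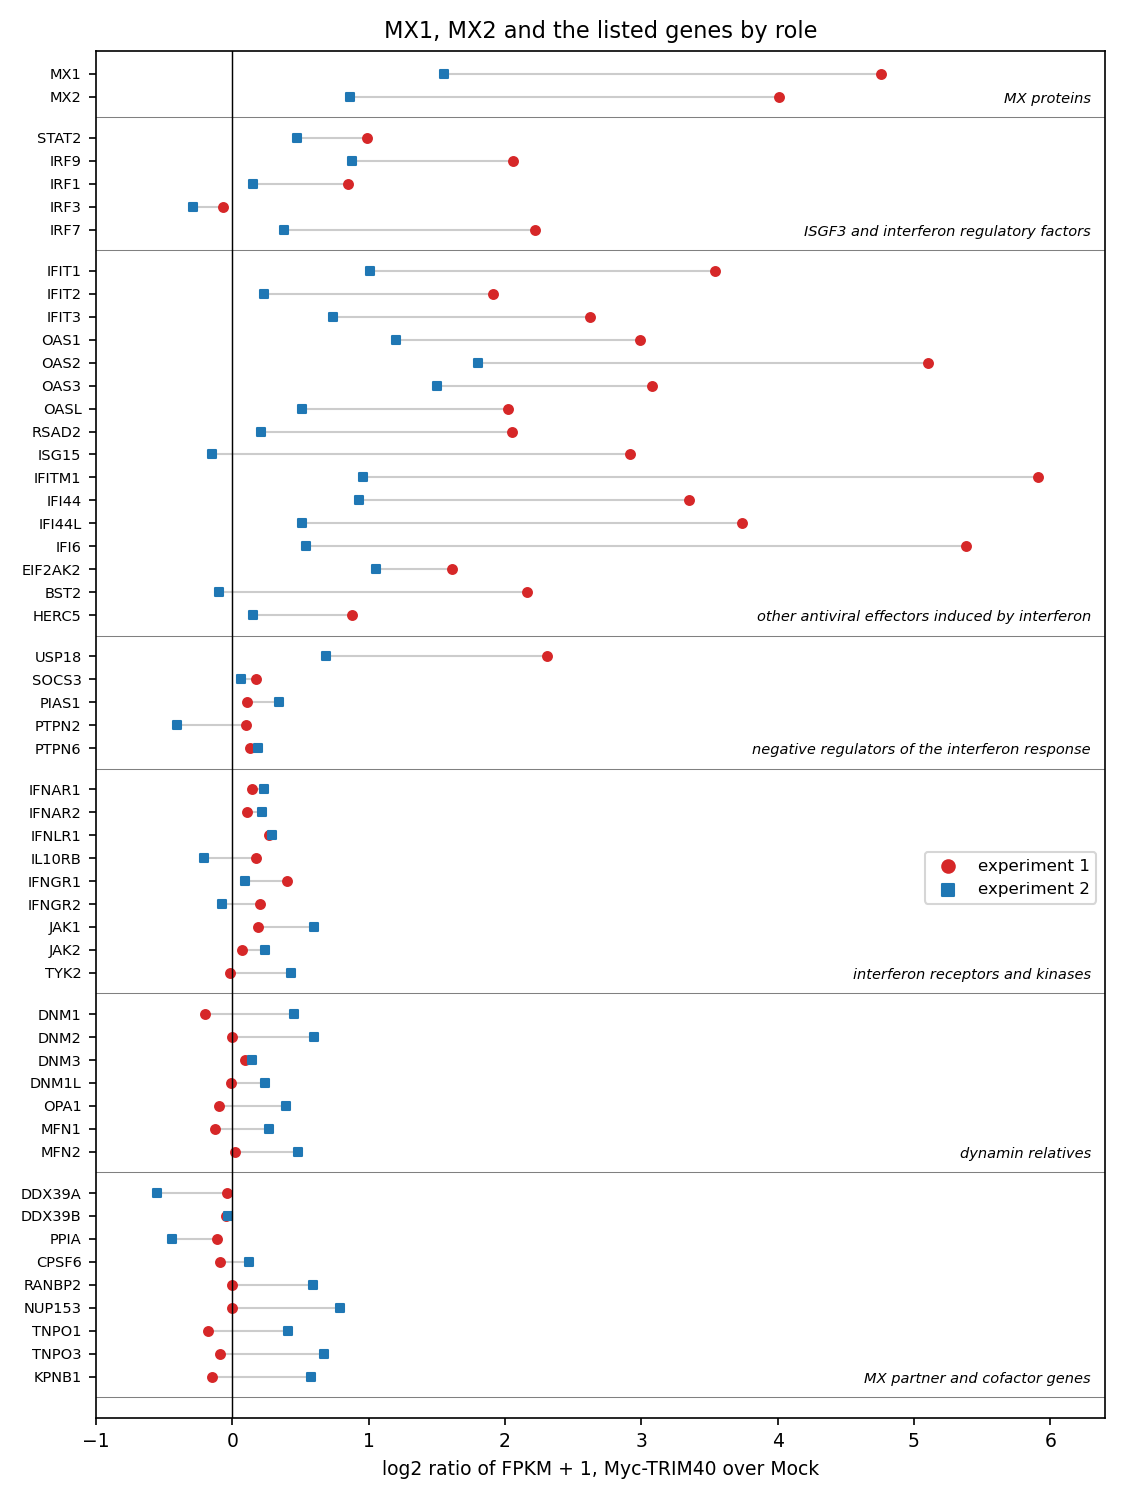
Log2 ratio of FPKM + 1, Myc-TRIM40 over Mock, with a red circle for experiment 1 and a blue square for experiment 2. Shown are MX1, MX2 and the tested factors, effectors, negative regulators, receptors and kinases, dynamin relatives and MX partners. The ligand and marker lists are not drawn. MX1 (4.76 and 1.55) and MX2 (4.01 and 0.86) lie among the antiviral effectors, and the dynamin relatives lie between -0.20 and 0.60.

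The genes most like MX1 and MX2 over the 4 libraries were found by the Euclidean distance of log2(FPKM + 1) values, each centred on its gene's mean, among 11754 genes with a mean of at least 1 FPKM. Nearest to MX1 were OAS2 (distance 0.32), UBE2L6 (0.44), MX2 (0.72), IFITM3 (0.88) and IFITM1 (1.00). UBE2L6 encodes the ISG15-conjugating enzyme, and IFITM3 and IFITM1 encode membrane proteins that hinder virus entry. Nearest to MX2 were IFITM3 (0.24), IFI44L (0.36), UBE2L6 (0.39), IFIT1 (0.60) and XAF1 (0.60), with MX1 in place 8. IFITM3 was at 34.4 and 561.6 FPKM in experiment 1 and at 36.2 and 55.2 FPKM in experiment 2, a higher level than that of MX2 in every library. The order for MX2 depends on the pseudocount of 1, since MX2 was under 1 FPKM in Mock cells. With this pseudocount its log2 ratios were 4.01 and 0.86, beside 3.99 and 0.60 for IFITM3. With a pseudocount of 0.1 those of MX2 were 5.53 and 2.17, and the distances were not recomputed. IFI44L and XAF1 were under 1 FPKM in every library but Myc-TRIM40 of experiment 1, where they were at 13.8 and 10.7 FPKM. MX2 was at 20.7 FPKM there and at most at 1.14 FPKM elsewhere. These genes reached the mean of 1 FPKM through that library, so the search favoured genes that were high in it. The likeness rests on 4 libraries, and largely on this 1, and it is given as a description.

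**Figure D4:**
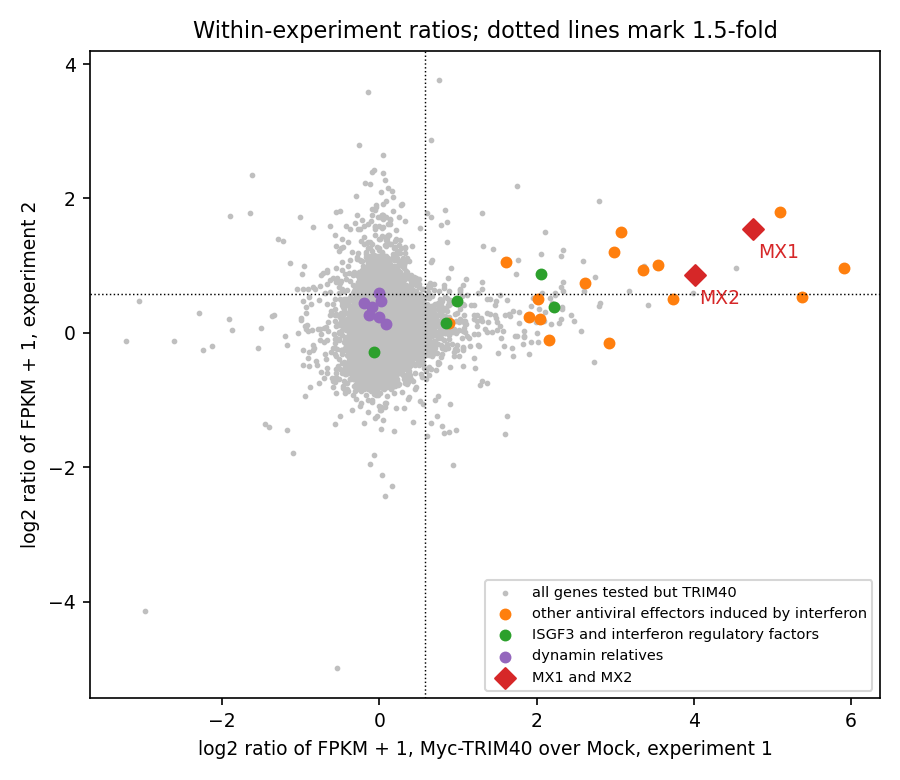
Log2 ratio of FPKM + 1, Myc-TRIM40 over Mock, in experiment 1 (x axis) and experiment 2 (y axis) for all genes tested except TRIM40, with MX1 and MX2 as red diamonds, listed genes in colour and dotted lines at 1.5-fold. MX1 and MX2 lie beyond both dotted lines, as do 8 of the 16 antiviral effectors. Both genes lie farther along the axis of experiment 1 (4.76 and 4.01) than along that of experiment 2 (1.55 and 0.86).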

How the data were processed

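Human HT-29 cells with control vector or Myc-TRIM40 were sequenced in 2 experiments (4 libraries). The authors deposited, per RefSeq transcript, an estimated count of reads (whole numbers, not normalized) and FPKM for both experiments. TPM was deposited for experiment 2 only, and for experiment 1 FPKM was rescaled to TPM in this work. The submitters' processing notes name HISAT2 2.1.0, StringTie 1.3.4d and hg19, without roles. Libraries were made with a TruSeq Stranded mRNA kit; whether counting used strand is not given in the sources used here. Other values in the deposited tables used here were transcript lengths.

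Reads were summed to 27685 genes. The test was edgeR 4.0.16 (glmQLFit, glmQLFTest; R 4.3.3) with TMM, filterByExpr (14868 genes), Benjamini-Hochberg adjustment and the experiment as a block. Common dispersion was 0.0484, with 1 residual and a median of 7.44 prior degrees of freedom. The labels number the libraries and each table holds 1 pair of the same experiment, and same-numbered libraries deviated together (r = 0.45). On simulated counts for TRIM40 against control, 100 of 100 genes changed 4-fold and 27 of 100 changed 2-fold were found among 14847 genes, and 3 unchanged genes were called. The simulation gave all genes the same dispersion, used the same fold in both experiments and had no effect of the experiment. The changed genes were drawn only from those above a set mean number of reads. The MX1 and MX2 ratios differed between the experiments, so these counts do not give the power for them. Ratios of reads used TMM effective library sizes, with exact binomial intervals at 95%; shares used Wilson intervals; 0 reads was bounded by a floor of 3 reads. Intervals and floors cover counting error only, since reads carry no molecular identifiers. With 2 experiments, each error rests on 2 libraries per condition and, in the edgeR fit, largely on a spread borrowed from all genes. Alternatives were DESeq2 1.42.0, limma 3.58.1 on log2(FPKM + 1), upper-quartile and RLE normalization, no block, no filter, each experiment left out, TPM, CPM, a pseudocount of 0.1 and median centring. Python 3.11.15 was used for the rest.

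Named genes were MX1, MX2, TRIM40, genes within 250 kb, lists of interferon ligands, receptors, factors, regulators, effectors, dynamin relatives, MX partners and cell type markers, and the 5 genes nearest in pattern to each MX gene. The members and lists were chosen with earlier results of these data known. Some results that this rule covers are not reported here.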

Additional observations from a re-analysis of the deposited data

How the results depend on the processing

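The log2 fold changes of MX1 and MX2 stayed positive and above an adjusted p of 0.05 in all 6 other fits across genes, with adjusted p between 0.250 and 1.00 for MX1 and between 0.0899 and 1.00 for MX2. Without the replicate block edgeR gave 4.36 (MX1) and 5.31 (MX2), adjusted p = 1.00 for each, so the pairing changed neither call. With each experiment left out, the log2 ratio of the other was 1.85 to 5.14 for MX1 and 2.58 to 5.85 for MX2, with no test. The lower value of each pair is without experiment 1. No gene listed in the deposited tables overlaps either span, so the sum with overlapping genes was not run. Within experiments, the log2 ratio of MX1 moved from 4.76 to 5.19 with a pseudocount of 0.1, 5.04 on TPM and 4.97 on CPM in experiment 1, and from 1.55 to 1.90 with a pseudocount of 0.1 and 1.93 on TPM in experiment 2. The ratio of MX2 moved from 4.01 to 5.53, 4.74 and 4.92 by the same steps in experiment 1, and from 0.86 to 2.17 with a pseudocount of 0.1 and 1.48 on CPM in experiment 2. The share of variant 2 in the Myc-TRIM40 library of experiment 1 was 89.9% by FPKM against 90.5% by reads. Over all genes, 6 were called higher and 3 lower by edgeR, against 45 and 9 by DESeq2, 3 and 0 by limma, 0 and 0 by edgeR without the block, and 0 and 0 by edgeR without the filter. At an unadjusted p under 0.05, limma had 587 higher and 134 lower, the fit without the block 128 and 25, and that without the filter 343 and 104. Genes 1.5-fold higher in both experiments numbered 68, against 259 with a pseudocount of 0.1 and 164 on TPM. The cause of these shifts was not tested.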
